A study of Mus musculus with 6 samples.

Results

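The genes described here encode the enzymes that add acetyl and methyl groups to histones or take them off, together with readers of acetylated histones and Polycomb subunits. They were taken from a list of 48 gene symbols, matched to the array's gene names with older names allowed. A gene was read from the brightest of its probes that had a value on all 6 arrays and exceeded the background clearly on 3 or more of them. All 48 had a probe and 46 were tested, of 22128 genes tested in all. The Polycomb genes Cbx2 and Cbx8 were not well above background on enough arrays.

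The samples are from G1E-ER-GATA-1, a line of mouse erythroid progenitors. The cells lack GATA-1 of their own and carry GATA-1 joined to the hormone-binding part of the oestrogen receptor, so that oestradiol turns the factor on. Of the 6 samples, 3 received a non-targeting control siRNA and 3 an siRNA against Mi2β, introduced by 2 nucleofections, at 0 h and at 24 h. All 6 were exposed to β-estradiol from 24 h and collected at 48 h, and all were grown with puromycin, erythropoietin and medium conditioned by Kit ligand-producing cells. Every sample therefore carries active ER-GATA-1, no sample without oestradiol was analysed here, and the model is a single cell line. Whether the 3 samples within a group were grown as separate cultures is not given in the labels. The p-values then reflect the spread among these arrays, part or all of which may be technical.

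Mi2β, the product of Chd4, powers nucleosome sliding in the NuRD complex, which also holds the histone deacetylases Hdac1 and Hdac2. Histone acetyltransferases acetylate lysines, bromodomain proteins read the acetyl mark, and deacetylases and sirtuins remove it. Polycomb complexes and other methyltransferases place methyl groups that go with silent or active chromatin, and demethylases take them away. In maturing erythroid cells these enzymes act alongside GATA-1 while the nucleus condenses and most genes are shut down.

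Values are log2 signal relative to the array's 75th percentile, and a change is the knockdown mean minus the control mean on that scale. The share of probes clearly above background (called detected here) ran from 53.4% to 56.8% on control arrays and from 48.9% to 74.0% on knockdown arrays, and knockdown replicate 2 had the highest share. The siRNA target itself, Chd4, read 5.93, 6.00 and 5.75 on control replicates 1 to 3 and 4.62, 4.60 and 4.54 on knockdown replicates 1 to 3. The groups did not overlap, and Chd4 was 2.48-fold lower in the knockdown (log2 change -1.31 ± 0.10 SE, adjusted p = 0.00161, limma with Benjamini-Hochberg adjustment over all genes). All 10 erythroid markers were detected. Of them 3 rose, Hbb-b1 (0.81), Alas2 (1.06) and Epb42 (1.85), and 2 fell, Slc4a1 (-1.04) and Ahsp (-1.11). Their summed level was 10.9 to 10.98 in the controls and 11.09 to 11.24 in the knockdown. The brightest genes, Hba-a1 and Hbb-b1, add most to this sum. The summed level of 8 megakaryocyte markers was 5.35 to 5.54 in the controls and 4.0 to 4.35 in the knockdown, with 3 fallen (Pf4, Gp9 and Gp1ba) and Ppbp undetected on every array. Itga2b of that list lay higher on every knockdown array, with a change of 1.51 that did not pass (adjusted p = 0.0508). That of 7 mast cell or basophil markers was 0.0024 to 0.29 against 1.40 to 1.63, where Hdc rose and Mcpt8, Fcer1a and Ms4a2 were not detected on any array. The others, Cpa3 (0.61, adjusted p = 0.0594), Cma1 (0.66, adjusted p = 0.552) and Tpsb2 (0.23, adjusted p = 0.209), had positive changes that did not pass. Of 7 myeloid markers (4.20 to 4.58 against 4.45 to 4.55, Mpo and Lyz2 undetected) and 6 lymphoid markers (3.18 to 3.41 against 3.06 to 3.26, Ms4a1 undetected) none rose or fell in limma's test, and 1, the myeloid gene Csf1r, had an unadjusted p under 0.05. The part of these marker shifts in the results below was not tested. In such bulk samples, fewer cells with a transcript and less transcript per cell cannot be told apart.

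Among the 46 tested histone enzyme genes, Hdac11 rose and Hdac6, Hdac7, Brd3, Ezh1 and Kdm4a fell. These are 6 of 46 genes (13%), beside 9.56% of all genes tested. Of the 44 members detected on 6 arrays, which leave out Hdac11, 11.4% were called, beside 10.4% of all such genes. The 5 that fell are 10.9% of the tested members, beside 4.56% of all genes. They are 11.4% of the members detected on 6 arrays, beside 5.29% of all such genes. The single rise stands beside 4.99% of all genes, and 0 members detected on 6 arrays rose, beside 5.09%. With 1 array left out, 1 member rose each time, and 1 fell without knockdown replicate 1, 2 fell without control replicate 1, control replicate 2 or knockdown replicate 2, and 4 fell without replicate 3 of the control or of the knockdown, while 3.67% to 7.14% of all genes were called. The other 40 did not pass the threshold. An unadjusted p under 0.05 was reached by 16 of 46, beside 23.9% of all genes. Of the 46, 44 were detected on all 6 arrays, and Hdac9 and Hdac11 were not.

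More members lay below 0 than above it. The change was negative for 35 of 46 members (76.1%), against 54.5% of all genes. Among genes detected on 6 arrays the shares were 79.5% of members and 58.1% of all. The count was 29 with quantile normalization (63%, against 56.3% of all genes), 34 with normexp background correction (73.9% against 60.7%) and 42 when arrays were scaled to their median (91.3% against 76.7%). With 1 array left out the members' share was lowest without knockdown replicate 2 (65.2% against 60.9%) or control replicate 2 (65.2% against 54.3%). It was highest without control replicate 3 (82.6% against 54.6%). Of the histone modifier genes listed outside the members, described below, 70.2% had a negative change. The knockdown arrays lay below every control array for 19 members (41.3%), against 18.4% of all genes and 33.9% of the genes listed outside the members. Among genes detected on 6 arrays the shares were 43.2% of members and 21.2% of all. The knockdown arrays lay above every control array for 3 members, against 12.7% of all genes. The median change was -0.15 over the members and -0.03 over all genes, whose quartiles were -0.23 and 0.21. Median scaling moved the median of all genes to -0.27 and that of the members to -0.38. With quantile normalization the medians lay close together, at -0.063 over the members and -0.046 over all genes, and without control replicate 2 the members' median was -0.090. The list as a whole was not tested.

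**Figure D1:**
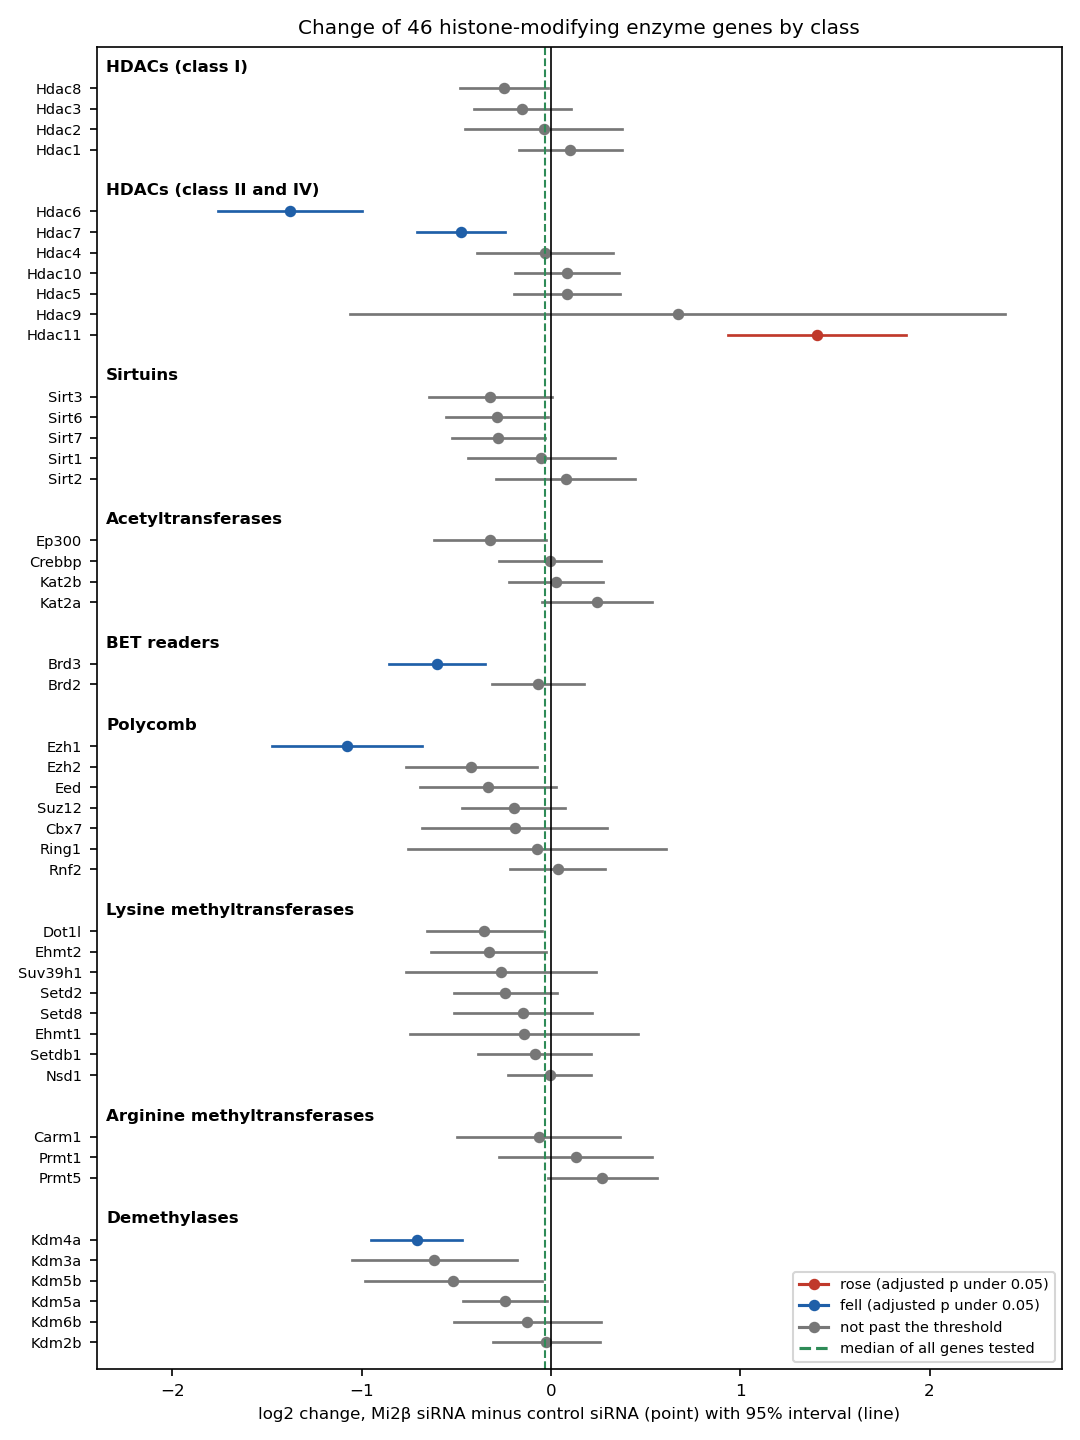
Log2 change (x axis, knockdown minus control) of the 46 tested histone enzyme genes, grouped by class, with points for the estimate and lines for its 95% interval from limma, 3 arrays per group. Hdac6, Ezh1, Kdm4a, Brd3 and Hdac7 lie to the left in blue, Hdac11 lies to the right in red, and the dashed line marks the median of all genes at -0.03.

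The class I histone deacetylases, which include the catalytic subunits of nuclear corepressor complexes, did not pass the threshold in limma's test. Of the 4, 1 (Hdac8) had an unadjusted p under 0.05. Hdac1, which forms the deacetylase core of NuRD with Hdac2, read 5.41, 5.66 and 5.50 on the control arrays and 5.53, 5.60 and 5.73 on the knockdown arrays. Its groups overlapped, and the change was 0.10 (95% interval -0.17 to 0.37, adjusted p = 0.638); with median scaling its sign turned (-0.13). Hdac2 read -1.40, -1.45 and -1.91 against -1.49, -1.62 and -1.76. Those groups overlapped as well, with a change of -0.04 (95% interval -0.45 to 0.38, adjusted p = 0.925). Hdac8, an X-linked deacetylase of cohesin, had the largest change of the class, and its knockdown values of -0.58, -0.66 and -0.61 all lay below the control values of -0.45, -0.40 and -0.26. That change of -0.25 did not pass (adjusted p = 0.181), and neither did the -0.15 of Hdac3, the enzyme of the NCoR complexes (adjusted p = 0.461).

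The class II and IV deacetylases held 3 of the 6 changed members and went in both directions. The 3 are 42.9% of only 7 genes tested, beside 9.56% of all genes. They include the class IIa enzymes Hdac4, Hdac5, Hdac7 and Hdac9, which shuttle between nucleus and cytoplasm, the mainly cytoplasmic Hdac6 and Hdac10, and Hdac11, the sole class IV enzyme. Hdac6, which deacetylates tubulin and other cytoplasmic proteins, read 0.85, 1.03 and 0.73 on the control arrays and -0.30, -0.77 and -0.46 on the knockdown arrays. Every knockdown value was negative and every control value positive. Hdac6 was 2.60-fold lower in the knockdown (log2 change -1.38 ± 0.16 SE, 95% interval -1.76 to -1.0, adjusted p = 0.00508). Its probe maps to chrX:7507249-7507308 (mm9, minus strand). The other Hdac6 probe (chrX:7507261-7507320) overlaps it and was brighter, but was passed over because its spot on knockdown replicate 1 had an outlier flag and was dropped. It differed by -1.21 over the remaining 5 arrays. Hdac6 stayed past the threshold without any 1 array and missed it on slide row 1 alone, which holds replicates 1 and 2 of each group (adjusted p = 0.054).

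Hdac11 went the other way. Its values were -3.78, -4.48 and -4.22 on the control arrays and -2.86, -2.68 and -2.72 on the knockdown arrays, so all knockdown arrays lay above all controls. The signal was near background: it was well above background on 2 of 3 control arrays and on 3 of 3 knockdown arrays. Hdac11 was 2.65-fold higher in the knockdown (log2 change 1.40 ± 0.19 SE, 95% interval 0.94 to 1.87, adjusted p = 0.00939; probe at chr6:91124085-91124144, mm9, plus strand). With normexp background correction the change was 0.42 (adjusted p = 0.0179), and on slide row 1 alone it missed the threshold (adjusted p = 0.0915).

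Hdac7, a class IIa enzyme known from lymphoid and endothelial cells, read 3.79, 3.93 and 3.97 in the controls and 3.45, 3.37 and 3.45 in the knockdown. No knockdown array reached a control array, and Hdac7 was 1.39-fold lower (log2 change -0.47 ± 0.09 SE, adjusted p = 0.0335; probe at chr15:97623208-97623267, mm9, minus strand). It missed the threshold when any 1 of the 6 arrays was left out (adjusted p = 0.0658 to 0.133), with quantile normalization (0.0521), with median scaling (0.451) and with slide row as a block (0.057). Hdac4, Hdac5 and Hdac10 had changes of -0.03, 0.08 and 0.08 with overlapping groups. Hdac9 was detected on 3 of 6 arrays, and its values ran from -6.26 to -3.84 in the controls and from -5.12 to -3.50 in the knockdown. Its change of 0.67 had a standard error of 0.71 (adjusted p = 0.632), so a difference was not measurable at this signal.

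The promoters of these 3 deacetylases are shown because the genes lie in one enzyme group and moved in both directions. Each sequence is the 250 bases before the first start site that RefSeq lists on GRCm38.p6, on the gene's strand, 5′ to 3′. Capitals mark matches, on either strand, to 3 short motifs searched for separately. The motif of GATA factors was searched as AGATAA, the motif of the NF-Y factor as CCAAT, and the motif of the Sp factors as GGGCGG. A match on the opposite strand is shown as its reverse complement, and no matches overlap in the windows shown. Hdac6 lies at chrX:7947890-7948139 (minus strand), Hdac11 at chr6:91156565-91156814 (plus strand) and Hdac7, which has 4 listed start sites, at chr15:97831496-97831745 (minus strand).
Hdac6: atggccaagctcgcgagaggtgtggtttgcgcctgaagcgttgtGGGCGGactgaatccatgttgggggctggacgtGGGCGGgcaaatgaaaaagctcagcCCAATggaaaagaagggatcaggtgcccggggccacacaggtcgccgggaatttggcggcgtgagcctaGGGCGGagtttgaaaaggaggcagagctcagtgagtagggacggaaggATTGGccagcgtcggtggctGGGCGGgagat
Hdac11: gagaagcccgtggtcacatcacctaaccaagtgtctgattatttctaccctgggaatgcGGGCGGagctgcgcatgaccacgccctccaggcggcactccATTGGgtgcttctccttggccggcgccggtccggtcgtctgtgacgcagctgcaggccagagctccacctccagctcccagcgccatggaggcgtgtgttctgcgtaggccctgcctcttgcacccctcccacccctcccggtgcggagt
Hdac7: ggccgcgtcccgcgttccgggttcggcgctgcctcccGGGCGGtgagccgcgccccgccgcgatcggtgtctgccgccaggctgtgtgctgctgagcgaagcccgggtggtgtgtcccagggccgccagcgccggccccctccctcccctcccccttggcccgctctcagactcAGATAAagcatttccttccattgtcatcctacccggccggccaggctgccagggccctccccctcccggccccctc

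The window of Hdac6 holds 2 CCAAT and 4 GGGCGG matches, and that of Hdac11 holds 1 of each. The Hdac7 window holds 1 AGATAA match and 1 GGGCGG match. Over the 40 of 48 members with a promoter in the table, AGATAA occurred in 2 (5%), Hdac7 and Setdb1, beside 10.3% of 27025 promoters of the same length. CCAAT occurred in 18 (45%, beside 34.5%) and GGGCGG in 27 (67.5%, beside 32.9%). Member promoters held a median of 17.5 CpG sites and a GC content of 61.6%, beside 6 CpG sites and 52% over all promoters. A match is a string of letters, and binding was not measured here.

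**Figure D2:**
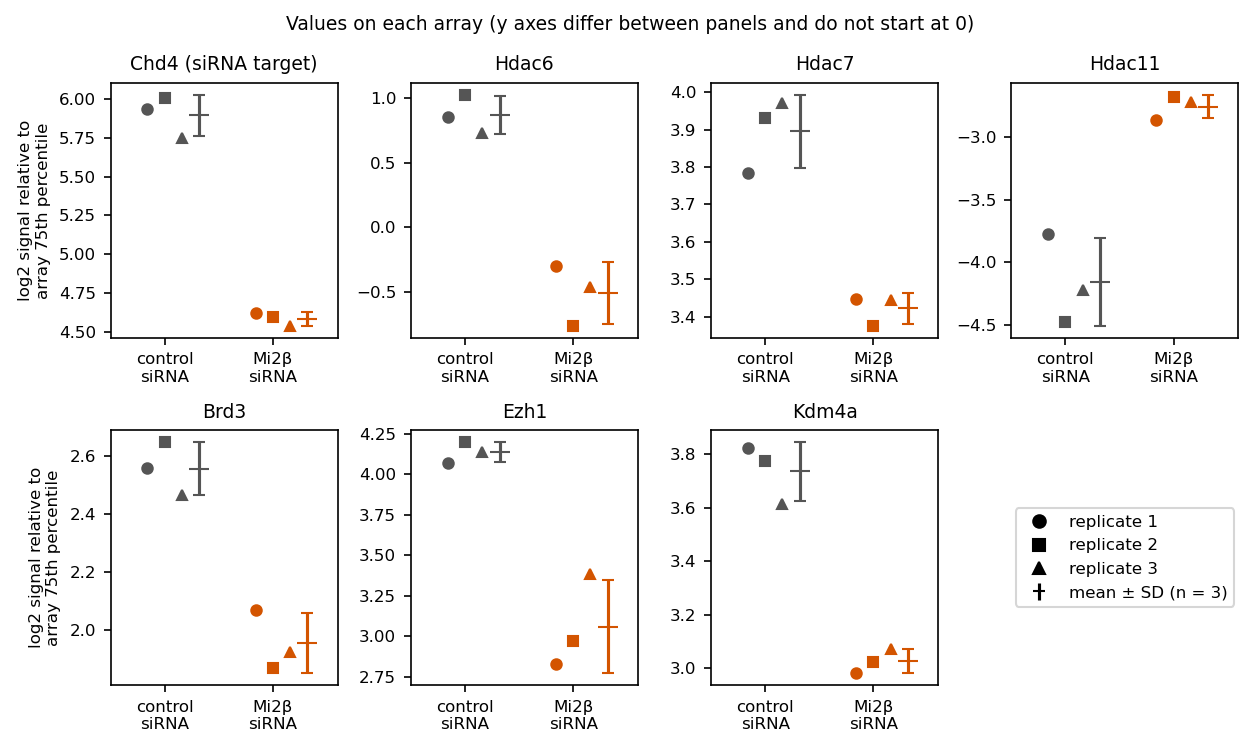
Log2 signal relative to the array's 75th percentile (y axis) of Chd4 and the 6 changed members on each of the 3 control and 3 knockdown arrays, with mean ± SD beside the points. In every panel the groups are apart, and for Ezh1 knockdown replicate 3 (3.38) lies closer to the controls than replicates 1 and 2 (2.83 and 2.97).

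Sirtuins remove acyl groups at the cost of NAD. None of the 5 measured passed the threshold in limma's test, 2 had an unadjusted p under 0.05, and their median change was -0.28. Sirt3, the main mitochondrial deacetylase, read 3.25, 3.44 and 3.35 against 3.00, 2.84 and 3.24, with a change of -0.32 (adjusted p = 0.217). Sirt6, a chromatin-bound enzyme, differed by -0.28 (3.28, 3.08 and 3.16 against 2.94, 2.75 and 2.97; adjusted p = 0.185). Sirt7, found in the nucleolus, also differed by -0.28 (adjusted p = 0.161). On the probes tested the knockdown arrays lay below every control array in these 3 of 5 sirtuins, as in 18.4% of all genes and 21.2% of those detected on 6 arrays. The other probes of Sirt7 differed by -0.38, with groups apart, and by -0.20, with overlapping groups. The other Sirt6 probe differed by -0.33 with groups apart. Sirt1 and Sirt2 had overlapping groups, with changes of -0.05 and 0.08.

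None of the 4 acetyltransferases passed the threshold in limma's test, and 1 (Ep300) had an unadjusted p under 0.05. Ep300 and Crebbp encode the paired coactivators p300 and CBP, which are known to acetylate GATA-1. Ep300 read 0.87, 0.60 and 0.74 in the controls and 0.48, 0.51 and 0.26 in the knockdown, apart by -0.32 without passing the threshold (adjusted p = 0.180). Crebbp differed by -0.01 (95% interval -0.28 to 0.27). Kat2a, the Gcn5 acetyltransferase of SAGA, read 2.83, 3.05 and 2.93 against 3.11, 3.35 and 3.09. Its knockdown arrays all lay above the controls, and the change of 0.24 did not pass (adjusted p = 0.281). The other Kat2a probe differed by 0.23 with overlapping groups. Its paralogue Kat2b differed by 0.03.

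Of the BET readers, Brd3 fell and Brd2 did not pass the threshold. Brd3 binds acetylated histones and is known to bind acetylated GATA-1. It read 2.56, 2.65 and 2.46 in the controls and 2.07, 1.87 and 1.92 in the knockdown. No knockdown array reached a control array, and Brd3 was 1.52-fold lower (log2 change -0.60 ± 0.10 SE, adjusted p = 0.0210; probe at chr2:27301106-27301165, mm9, minus strand). Its other 2 probes, at other positions of the gene, differed by -0.75 and -0.73. The call was lost without control replicate 1 or 2 or without knockdown replicate 1, 2 or 3 (adjusted p = 0.065 to 0.0808), and with median scaling (0.3). Brd2, its close relative, read 5.29, 5.27 and 5.08 against 5.15, 5.16 and 5.11, with a change of -0.07 that turned to 0.01 with quantile normalization (adjusted p = 0.726 with the 75th percentile). The other Brd2 probe differed by -0.24 with groups apart.

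Of the 7 Polycomb members tested, Ezh1 fell. It belongs to the core of PRC2, the complex that methylates histones at silent genes. Ezh1, the methyltransferase subunit typical of cells that have left the cell cycle, read 4.07, 4.20 and 4.14 in the controls and 2.83, 2.97 and 3.38 in the knockdown. The highest knockdown value was still below the lowest control value, and Ezh1 was 2.11-fold lower (log2 change -1.08 ± 0.16 SE, 95% interval -1.47 to -0.68, adjusted p = 0.0131). The probe lies at chr11:101052430-101052489 (mm9, minus strand). The 3 other Ezh1 probes differed by -1.10, -1.08 and -0.84, each with groups apart. Ezh1 missed the threshold narrowly without control replicate 1 or 2 or without knockdown replicate 1 or 2 (adjusted p = 0.0507 to 0.0593).

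The other PRC2 core genes among the members did not pass. Ezh2, the catalytic subunit of dividing cells, read 4.08, 4.29 and 3.94 against 3.76, 3.49 and 3.80 (change -0.42 ± 0.14 SE, adjusted p = 0.138). Eed, which binds the methyl mark that PRC2 makes, read 3.88, 4.27 and 3.82 against 3.76, 3.64 and 3.57 (change -0.33, adjusted p = 0.242). Suz12, the scaffold subunit, read 4.07, 4.26 and 3.93 against 3.89, 3.88 and 3.90 (change -0.20, adjusted p = 0.357). In these 4 members each knockdown array lay below each control array, as in 18.4% of all genes and 21.2% of those detected on 6 arrays. Their changes were negative under quantile normalization, normexp correction and median scaling as well, where 56.3%, 60.7% and 76.7% of all genes were. The 4 are a part of the Polycomb class, not a class of the plan, and as a set they were not tested. Rbbp4 and Rbbp7, Polycomb subunits listed outside the members, had overlapping groups and changes of -0.26 and -0.01. The ubiquitin ligase genes Rnf2 and Ring1 and the reader Cbx7, which belong to PRC1, had overlapping groups and changes of 0.04, -0.07 and -0.19. Cbx2 was not detected on any array. The promoter window of Ezh1 (chr11:101226464-101226713, GRCm38.p6, minus strand) is shown in the same way, as the changed member with no match to any of the 3 motifs.
Ezh1: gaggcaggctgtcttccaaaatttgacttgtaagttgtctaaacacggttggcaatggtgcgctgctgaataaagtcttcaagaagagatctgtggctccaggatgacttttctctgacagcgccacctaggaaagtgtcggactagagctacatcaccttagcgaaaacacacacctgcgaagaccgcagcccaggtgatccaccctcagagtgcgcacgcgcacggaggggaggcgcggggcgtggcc

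Lysine methyltransferases as a class stayed under the threshold: 0 of 8 passed in limma's test and 2 had an unadjusted p under 0.05. All 8 changes were negative, from -0.35 to -0.01, beside 54.5% of all genes. With quantile normalization 7 of 8 were negative, beside 56.3% of all genes. Dot1l, which methylates the nucleosome core at transcribed genes, read 4.51, 4.54 and 4.22 against 4.13, 3.97 and 4.12. The knockdown arrays lay below the controls by a difference of -0.35 (adjusted p = 0.153). Other Dot1l probes differed by -0.37, with overlapping groups, and by -0.42, with groups apart. Ehmt2, the G9a methyltransferase of silent chromatin, read 5.42, 5.32 and 5.11 against 5.03, 4.81 and 5.02, with a change of -0.33 (adjusted p = 0.179). Setd2, which methylates histones behind RNA polymerase, was the third gene with groups apart (change -0.24, adjusted p = 0.259). These 3 are 37.5% of the 8, beside 18.4% of all genes with the knockdown arrays below every control array. Setd8, a histone monomethyltransferase studied in erythroid maturation, differed by -0.15, Ehmt1 (the partner of G9a) by -0.14, and the heterochromatin enzymes Suv39h1 and Setdb1 by -0.26 and -0.08. Nsd1 differed by -0.01.

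None of the 3 arginine methyltransferases passed in limma's test, and 0 had an unadjusted p under 0.05. Prmt5, which makes symmetric dimethylarginine, read 3.99, 4.29 and 4.16 in the controls and 4.54, 4.34 and 4.38 in the knockdown. All knockdown arrays lay above the controls, with a change of 0.27 (adjusted p = 0.235) that shrank to 0.04 with median scaling. Prmt1, the main asymmetric enzyme, read 5.60, 5.68 and 5.17 against 5.77, 5.50 and 5.57, and its change of 0.13 turned to -0.10 with median scaling (adjusted p = 0.691 with the 75th percentile). Carm1 differed by -0.07 with overlapping groups.

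All 6 demethylases had a negative change, beside 54.5% of all genes, with a median of -0.38. With quantile normalization 5 of 6 did, beside 56.3% of all genes. Of the 6, 1 fell (16.7%, beside 4.56% of all genes). Kdm4a, a Jumonji enzyme that removes methyl groups from repressive and transcribed-gene marks, read 3.82, 3.77 and 3.61 in the controls and 2.98, 3.02 and 3.07 in the knockdown. The spread within each group was small against the gap, and Kdm4a was 1.64-fold lower (log2 change -0.71 ± 0.10 SE, adjusted p = 0.00986; probe at chr4:117809639-117809698, mm9, minus strand). Its second probe differed by -0.70. The call was lost without knockdown replicate 1 (adjusted p = 0.0642), with median scaling (0.185) and on slide row 1 alone (0.0576).

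Kdm3a, a Jumonji demethylase induced by hypoxia in many cells, read 4.79, 4.89 and 4.74 against 4.03, 3.97 and 4.56. Its knockdown arrays lay below the controls, replicate 3 least so, and the change of -0.62 ± 0.18 SE did not pass (adjusted p = 0.0932). Kdm3a passed in 5 of 18 alternatives. Without knockdown replicate 3 the change was -0.80 (adjusted p = 0.023). The others kept all 6 arrays: normexp background correction, detection on all 6 arrays, an intensity trend and array weights. Kdm5b, which removes methyl groups from active promoters, had the same uneven pattern, with 5.62, 5.79 and 5.94 in the controls and 4.96, 5.23 and 5.61 in the knockdown. The change was -0.52 (adjusted p = 0.172), and its 3 other probes differed by -0.32, -0.37 and -0.30 with overlapping groups. Kdm5a, its paralogue, differed by -0.24 with groups apart (adjusted p = 0.174). The knockdown arrays lay below every control array for 4 of the 6 demethylases (66.7%), beside 18.4% of all genes. Kdm6b, which removes the Polycomb methyl mark, and Kdm2b, which brings a PRC1 variant to CpG islands, differed by -0.12 and -0.03.

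**Figure D3:**
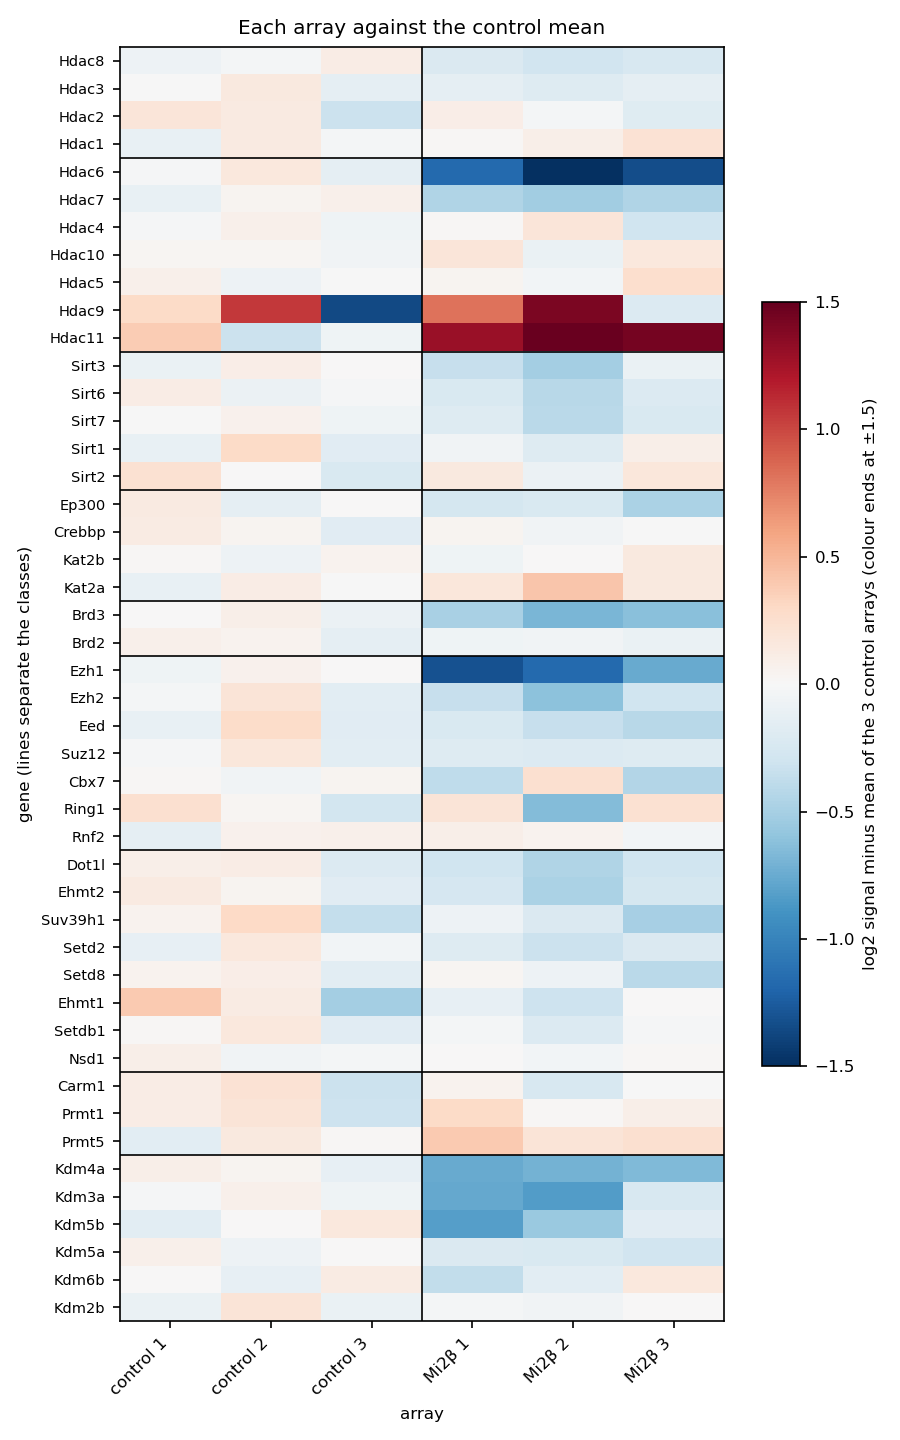
Log2 signal of each array minus the mean of the 3 control arrays (colour, ending at ±1.5) for the 46 tested members (rows, by class) on the 6 arrays (columns). Hdac6, Ezh1 and Kdm4a are blue and Hdac11 is red on all 3 knockdown arrays, while knockdown replicate 3 is paler than replicates 1 and 2 for Ezh1, Kdm3a and Kdm5b.

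Several members had further probes on the same arrays. Of the 46 members, 19 had more than 1 detected probe, and in 17 all probes differed in the same direction. The exceptions were Kdm2b and Nsd1, whose probes lay on both sides of 0. The probes of a gene share the same RNA samples and are not replicates. Among the changed members, Brd3, Ezh1 and Kdm4a were measured at more than 1 position, while Hdac7 and Hdac11 had 1 probe each and the probes of Hdac6 overlap.

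**Figure D4:**
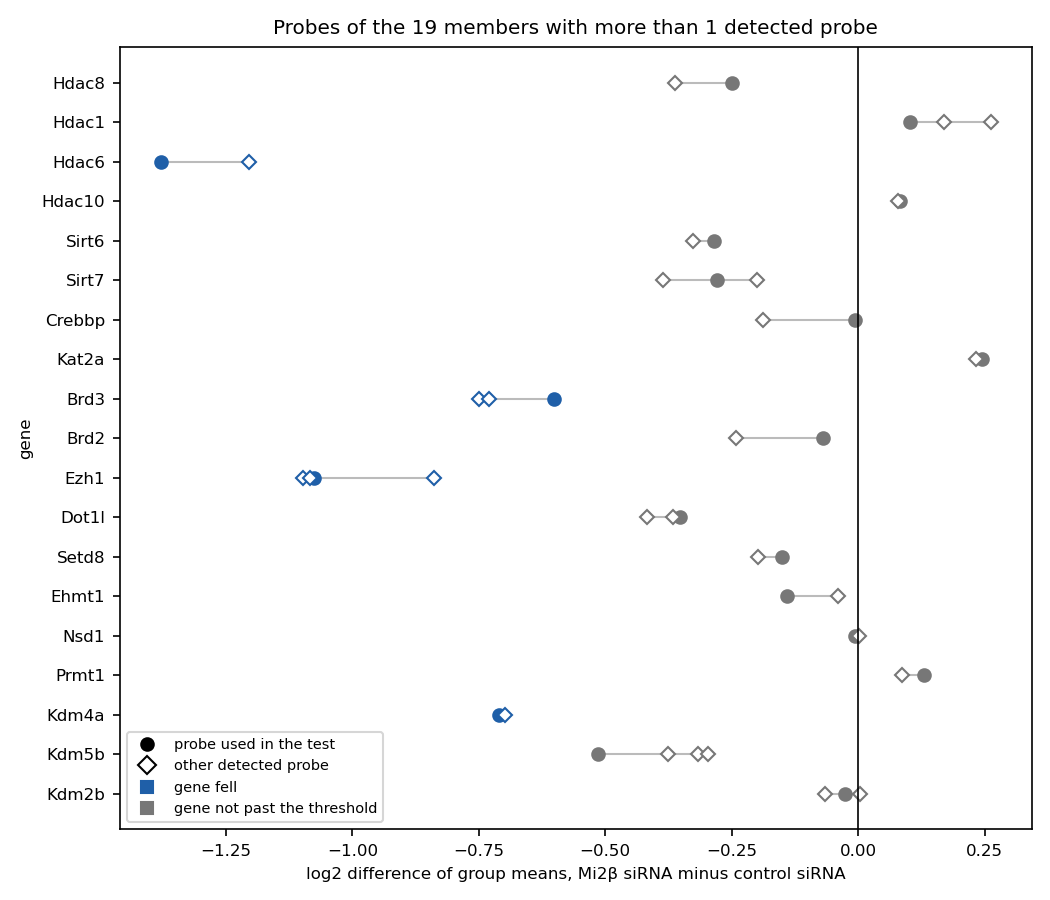
Log2 difference of group means (x axis, knockdown minus control) for each detected probe of the 19 members with more than 1 such probe. Filled circles are the probes tested and open diamonds the others, and all probes of Hdac6, Ezh1, Brd3 and Kdm4a lie at -0.60 or lower, and those of the other genes at -0.52 or higher.

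Genes of the same pathways outside these 48 were read from the same fit. Of 128 listed, 124 were tested, 2 rose and 12 fell (11.3%, beside 9.56% of all genes), with a median change of -0.13. Among 18 other acetyltransferases and scaffolds 3 fell (16.7%, beside 4.56% of all genes). They were Tada3, an adaptor of SAGA and ATAC (-0.64, adjusted p = 0.0465), the nuclear receptor coactivator Ncoa3 (-0.59, adjusted p = 0.0133) and the TFIID subunit Taf1 (-0.58, adjusted p = 0.0337). Of 11 other bromodomain readers Brd1 fell (-0.55, adjusted p = 0.0477), and of 14 deacetylase corepressor subunits outside NuRD Ncor1 fell (-0.51, adjusted p = 0.0465). These are 9.09% and 7.14% of their lists, beside 4.56% of all genes. The knockdown arrays lay below every control array for 8 of the 11 readers (72.7%) and 10 of the 14 corepressor subunits (71.4%). They lay above for 0 and 1. Over all genes 18.4% lay below, and in the other outside lists 0% to 38.9%. Neither list was tested as a set. Of the 2 other sirtuins Sirt5, a mitochondrial desuccinylase, rose (0.51, adjusted p = 0.0422).

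Among 26 other lysine methyltransferases and subunits 3 fell (11.5%, beside 4.56% of all genes). Nsd3, a relative of Nsd1, read 2.89, 3.01 and 2.76 in the controls and 2.11, 1.81 and 2.15 in the knockdown (-0.87 ± 0.13 SE, adjusted p = 0.0146). Smyd4 differed by -0.72 (adjusted p = 0.0114) and Kmt5b, which adds further methyl groups to the mark that Setd8 starts, by -0.70 (adjusted p = 0.0189). Pcgf1, of a PRC1 variant, was the single gene of 23 other Polycomb subunits to pass (-0.60, adjusted p = 0.0342). Its PRC1 relatives Bmi1 and Pcgf3, named after their values were seen, had groups apart and changes of -0.64 (adjusted p = 0.0522) and -0.40 (adjusted p = 0.0979). The relatives Pcgf2, Pcgf5 and Pcgf6 had overlapping groups and changes of 0.52, -0.10 and 0.01. Over the 23 the median change was -0.01, with 13 negative and 10 positive. The knockdown arrays lay below every control array for 6 of the 23 and above every control array for 3. Phf8 was the single gene of 15 other demethylases to pass (-0.51, adjusted p = 0.0403). Of 6 other arginine methyltransferases 0 passed in limma's test, with 2 at an unadjusted p under 0.05. Of 9 genes that supply the acetyl and methyl donors and cofactors, Mat2b, a regulatory subunit for S-adenosylmethionine synthesis, fell (-0.65, adjusted p = 0.0128), as did Nmnat1, of nuclear NAD synthesis (-0.43, adjusted p = 0.0392). Idh2, the mitochondrial isocitrate dehydrogenase, rose (0.62, adjusted p = 0.0356). The share called was 33.3% of these 9 genes, beside 9.56% of all genes. For all 14 the groups did not overlap, which adds no support, because the 14 were named for passing on these same arrays. Over all genes the knockdown arrays lay below every control array for 18.4% and above for 12.7%. With median scaling or when slide row 1 was used alone none of the 14 passed in limma's test.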

How the data were processed

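Total RNA of 6 samples (0.1 µg each) was labelled with Cy3 and hybridised to 1-colour Agilent arrays. The deposited spot intensities are background-subtracted processed signals on a linear scale, not normalized between arrays, and the file headers name Agilent Feature Extraction 10.7.3.1. The table of values that the authors deposited repeats these intensities in rounded form. Per the submitters' processing notes limma was used; settings are not given in the sources used here.

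Control spots and outlier-flagged spots were dropped and spots of a probe averaged on the log2 scale (55681 probes). Each array's 75th percentile was then subtracted from its log2 signals. Of probes well above background on at least 3 arrays and with a value on all 6, the brightest by mean stands for its gene. The second condition passed over the brightest probe of 1 member, Hdac6. Names were updated through RefSeq accessions (27509 of 29150 matched). Probe coordinates are of mm9; no genome of that build was used, so exons and untranslated regions are not given.

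Knockdown and control were compared in R 4.3.3 by limma 3.58.1 (eBayes on an lmFit without covariates, two-sided), and p-values were adjusted by Benjamini-Hochberg over 22128 genes at a threshold of 0.05. "Rose" and "fell" mean past that threshold. The fit was tested on simulated data. All arrays share 1 slide and 1 scan. Within-group correlations across genes were 0.987 to 0.994 and between-group ones 0.980 to 0.987. The number of arrays limits the precision. Marker sums are log2 of the summed linear signals.

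The members and lists were chosen with earlier results of these data known. Named are all changed members, the 2 with the largest change in each class, Hdac1, Hdac2, Chd4 and changed genes of the outside lists (at most 4 per list); other members are given to account for each of them. Alternatives varied background correction, scaling, filter, probe choice, blocks, variance model and the arrays included.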

Additional observations from a re-analysis of the deposited data

Results flagged for a closer look

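Cbx8, a Polycomb reader that was left out of the tests, was well above background on a single array, knockdown replicate 3, where it read -1.96 on the log2 scale relative to the 75th percentile. The control arrays read -6.79, -6.80 and -6.73 and knockdown replicates 1 and 2 read -7.17 and -7.00, none of them well above background. The gene has 1 probe, and the value was seen on 1 of 3 knockdown arrays.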

How the results depend on the processing

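Chd4 passed the threshold in 18 of 18 alternatives, Hdac6 in 17 of 18, Hdac11 in 15 of 17, Kdm4a in 14 of 18, Ezh1 in 13 of 18, Brd3 in 9 of 18 and Hdac7 in 6 of 18, and none of these 7 changed direction. The deposited value table gave the same counts as the scanner values. The causes of the shifts below were not tested.

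Of the members, 1 rose and 5 fell; 0 rose when detection on all 6 arrays was required, which leaves Hdac11 out. Slide row as a block gave 1 rise and 4 falls, without Hdac7. No detection filter gave 3 falls, median scaling 2, slide row 1 alone 0 rises and 1 fall, and array weights 2 rises and 8 falls. Leaving out 1 array gave 1 rise each time and 1 to 4 falls: 1 without knockdown replicate 1, 2 without control replicate 1 or 2 or knockdown replicate 2, and 4 without control or knockdown replicate 3. Over all genes (1105 rose, 1010 fell) the rises numbered 496 with median scaling, 661 with no filter, 494 on slide row 1 alone, 2181 with array weights and 557 to 898 with 1 array left out. The falls were 1670 with normexp, 335 with median scaling, 332 with no filter, 226 on slide row 1, 1789 with an intensity trend, 2550 with array weights and 256 to 681 with 1 array left out.

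Of the outside lists (2 rose, 12 fell), rises numbered 4 with normexp, 0 with median scaling, 1 with no filter, 4 with detection on all 6 arrays, 4 with the mean over probes, 0 with slide row as a block, 0 on slide row 1, 4 with an intensity trend, 8 with array weights and 0 to 1 with 1 array left out. Falls numbered 22 with normexp, 0 with median scaling, 0 with no filter, 6 with slide row as a block, 0 on slide row 1, 24 with an intensity trend, 30 with array weights and 0 to 9 with 1 array left out.

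With the replicate number as a block, 502 genes rose and 183 fell, 0 members rose and 1 (Hdac6) fell, and 0 genes of the outside lists rose or fell. The labels do not say that the numbers pair the arrays. Deviations of same-numbered arrays correlated at 0.205, -0.319 and 0.132, and 1 of 3 control arrays correlated best with its own number.

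The sign turned for Hdac1 with median scaling (-0.13), for Hdac2 with array weights (0.0058) and without control replicate 1 (0.056), control replicate 2 (0.031) or knockdown replicate 3 (0.032; -0.20 to 0.056 over all arrays left out in turn), for Brd2 with quantile normalization (0.0067), and for Prmt1 with median scaling (-0.10), on slide row 1 (-0.0039) and without control replicate 3 (-0.024; -0.024 to 0.23 over all arrays left out in turn). Among the other members, 14 turned sign under at least 1 alternative (Carm1, Crebbp, Ehmt1, Hdac4, Hdac5, Hdac9, Hdac10, Kat2b, Kdm2b, Nsd1, Ring1, Rnf2, Sirt1 and Sirt2), so 18 of 46 did in all, and 0 of the 18 had passed the threshold. Signals near background limit Hdac9, Hdac11, Cbx2 and Cbx8.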

Other observations

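Hdac6 lies on the X chromosome between Eras and Gata1, and Suv39h1 lies beyond Gata1. Of the neighbours in the order of the mm9 probe positions, Timm17b differed by -0.08 (adjusted p = 0.681), Pcsk1n by 0.37 (0.124), Gata1 by -0.41 (0.115) and Was by 0.06 (0.715) in limma's fit, beside -1.38 for Hdac6. Gata1 read 5.18, 5.20 and 5.11 in the controls and 4.68, 4.59 and 4.98 in the knockdown. The cells lack GATA-1 of their own and carry the ER-GATA-1 transgene. Whether the Gata1 probe measures the chromosomal gene, the transgene or both was not tested. Eras was detected on 2 of 6 arrays and Glod5 on 0 of 6, and neither was tested.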
